A study of Mus musculus with 5 samples.

Results

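The interferon response and innate sensing genes are a hand-made list of 44 mouse genes, covering the receptors and transcription factors of interferon signalling, sensors of nucleic acids and microbial products, and the effectors that interferons induce. The list was made by function, with no measured value in the rule, but with earlier results of these data known. Of the 44 genes, 42 were matched to 63 of the 41174 gene probes on the arrays, which carried 18300 named genes in all. The 2 members not matched were Mx1 and Mx2. There were 25 members with 1 probe and 17 with several, and for the latter the brightest probe among those detected on the most arrays was used.

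Gene expression was measured on 5 Agilent mouse oligonucleotide arrays, 1 per condition. ES was the embryonic stem cell line E14, and Hepa1-6 was a mouse hepatoma line. EHe was the undifferentiated hybrid line obtained by fusing E14 and Hepa1-6 cells, and EHeD7 and EHeD14 were EHe cells differentiated in vitro for 7 and 14 days. According to the study's methods, the fusion used polyethylene glycol, the ES parent carried a red fluorescent protein with hygromycin resistance, the hepatoma parent carried a green fluorescent protein with neomycin resistance, and hybrid colonies with ES morphology were picked, so the hybrids carry both cassettes. Whether the EHe RNA came from 1 clone is not given in the sources used here. The medium of ES and EHe held leukemia inhibitory factor and serum replacement. By the labels, EHeD7 and EHeD14 were monolayers in high-glucose medium whose serum was 15% fetal calf serum, and Hepa1-6 grew in that medium at 10%. The medium therefore changed together with the cell state.

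Interferons are secreted proteins that bind paired receptor chains on the cell surface. Type I interferons act through Ifnar1 and Ifnar2, and interferon gamma acts through Ifngr1 and Ifngr2. Signal transducers such as Stat2, joined by Irf9, carry the signal to interferon-stimulated response elements (ISRE) in promoters, and the response to interferon gamma also uses gamma-activated sites (GAS). Pluripotent cells are known for a weak response to interferon, which strengthens as they differentiate.

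Levels are given as the log2 processed signal minus the 75th percentile of the same array, so that 0 is the 75th percentile, and differences are log2 differences of these levels or folds. Because each condition had a single array, replicate error is unknown, no p-value was computed, and a difference is described by its size alone. Repeated spots of a probe had a median SD of 0.0694 to 0.0949 log2 units across the 5 arrays, which measures spot noise only. Where a probe was not well above background on 1 of the 2 arrays, the fold is a lower bound taken at the lowest signal called well above background on that array, written as "at least", and bounds under 1-fold were counted as no difference. That floor was highest on the EHe array, at a signal of 45.1 against 18.3 to 36.8 on the others. The 4 other arrays were hybridised on 1 slide and Hepa1-6 on another, so effects of the slide and of the line Hepa1-6 cannot be told apart. In these bulk cultures, fewer cells expressing a gene and less RNA per cell cannot be told apart either.

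The labelled cell types were checked against marker genes. Of the 5 pluripotency markers measured, 5 were detected in ES, EHe, EHeD7 and EHeD14 and 1 in Hepa1-6. Of 6 hepatocyte markers, 4 were detected in Hepa1-6, with Ttr and Apoa1 not well above background, 1 in ES (Afp, at -4.02), and 0 in EHe, EHeD7 and EHeD14.

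Detection of the list differed between the conditions. Of the 42 matched members, 32 were well above the background of the ES array, 28 in EHe, 36 in EHeD7, and 38 in both EHeD14 and Hepa1-6. As shares of the list these were 76.2%, 66.7%, 85.7%, 90.5% and 90.5%, beside 75.9%, 70.3%, 79.5%, 76.6% and 65.6% of all named genes. The share of the list was thus near that of the named genes in ES and EHe, and above it in both differentiated hybrids and in Hepa1-6. There were 25 members detected on all 5 arrays and 3 (Tlr3, Ifit1 and Ifit3) detected on none. Among the 39 detected members, 20 had their highest level in Hepa1-6, 7 in EHeD14, 7 in EHe and 5 in ES. The same count was not made over all named genes, so whether it is particular to the list is unknown.

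**Figure D1:**
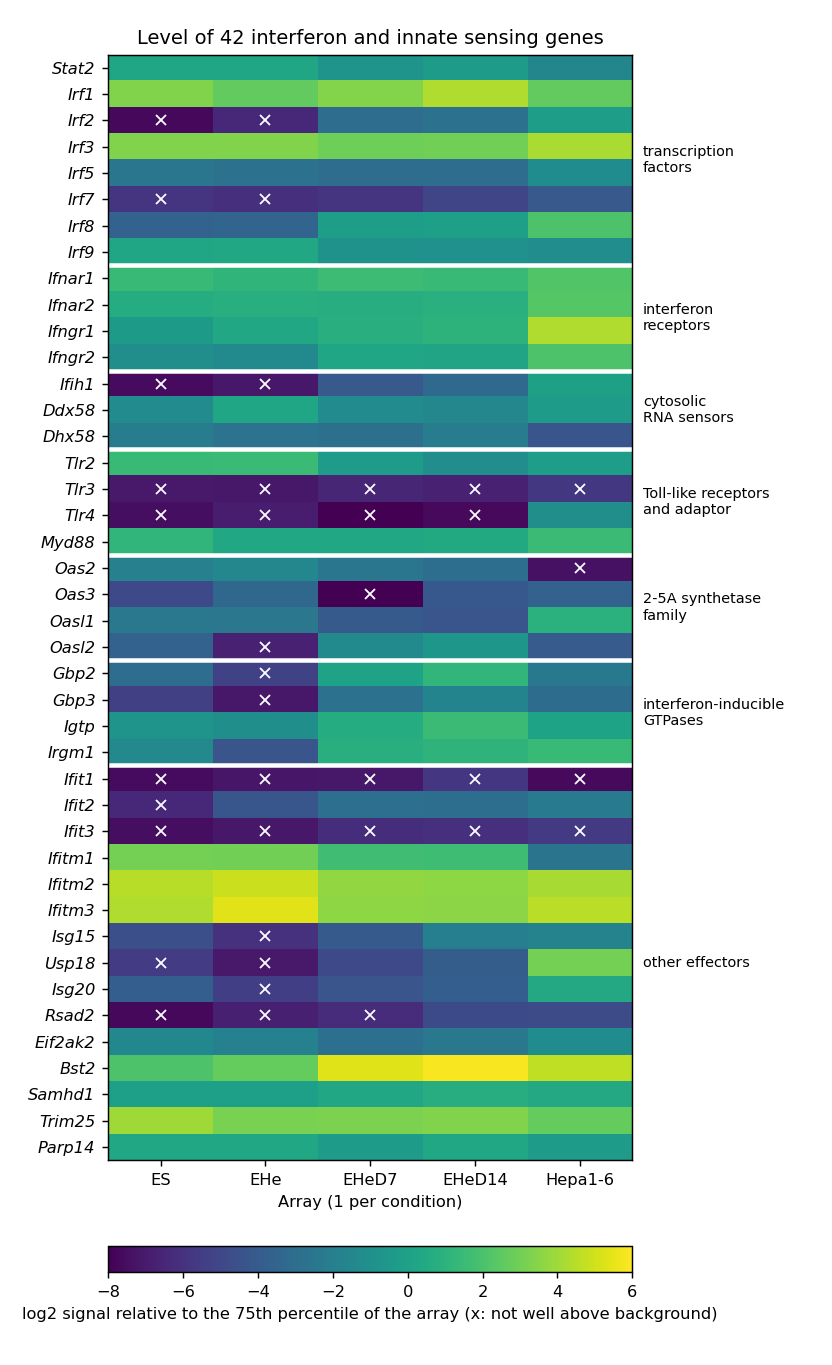
Level of the 42 matched genes (rows, grouped by role) on the 5 arrays (columns), as log2 signal relative to the 75th percentile of each array, with white crosses where the gene was not well above background. Each of the GTPases and Oasl2 is darker in EHe than in EHeD7 and EHeD14, whereas Usp18, Tlr4 and Isg20 are each brightest in Hepa1-6.

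Many members differed between the parental lines. Between Hepa1-6 and ES, 15 of 39 members compared were over 3-fold higher in Hepa1-6 and 5 were over 3-fold lower, beside 13.9% and 22.2% of all named genes. The median member difference was 0.88 log2 units, beside -0.42 over all named genes. Members therefore lay mostly above the bulk of genes in Hepa1-6, with Usp18, Irf8, Ifih1, Irf2 and Ifngr1 furthest up, and Ifitm1 and Oas2 furthest down.

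The undifferentiated hybrid was close to its ES parent. Between EHe and ES, 1 of 33 members (Oas3) was over 3-fold higher and 2 (Irgm1 and Gbp2) were over 3-fold lower, beside 2.58% and 3.52% of all named genes, with a median of -0.05 against -0.12. Between EHe and Hepa1-6, 5 of 39 members were over 3-fold higher in EHe and 15 over 3-fold lower, beside 19.9% and 14.3% of all named genes, with a median of -1.06 against 0.28. These comparisons share the EHe array. The share of members lower in EHe than in Hepa1-6 was above the background share, while the counts against ES were near it.

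Upon differentiation a subset of the list was higher. In EHeD7 against EHe, 9 of 37 members were over 3-fold higher (Irgm1, Gbp2, Oasl2, Irf8, Bst2, Gbp3, Irf2, Igtp and Ifngr2) and 3 were over 3-fold lower (Oas3, Tlr2 and Ifitm3), beside 7.06% and 4.3% of all named genes. In EHeD14 against EHe, 11 of 38 were over 3-fold higher (Gbp2, Irgm1, Oasl2, Irf8, Gbp3, Bst2, Isg15, Igtp, Irf2, Irf1 and Ifih1) and 4 were over 3-fold lower (Tlr2, Oasl1, Ddx58 and Ifitm3), beside 7.33% and 4.74%. Both comparisons use the same EHe array. The median member difference was 0.03 at day 7 and 0.22 at day 14, beside -0.02 over all named genes at both days, so the difference lay in a subset and not in the middle of the list.

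EHeD14 did not have the profile of Hepa1-6. Between EHeD14 and Hepa1-6, 6 of 39 members were over 3-fold higher in EHeD14 and 10 over 3-fold lower, beside 18.6% and 12.9% of all named genes, with a median of -0.78 against 0.22. Between EHeD14 and EHeD7, 2 of 38 members were over 3-fold higher (Isg15 and Oas3) and 0 over 3-fold lower, beside 0.518% and 0.674%.

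**Figure D2:**
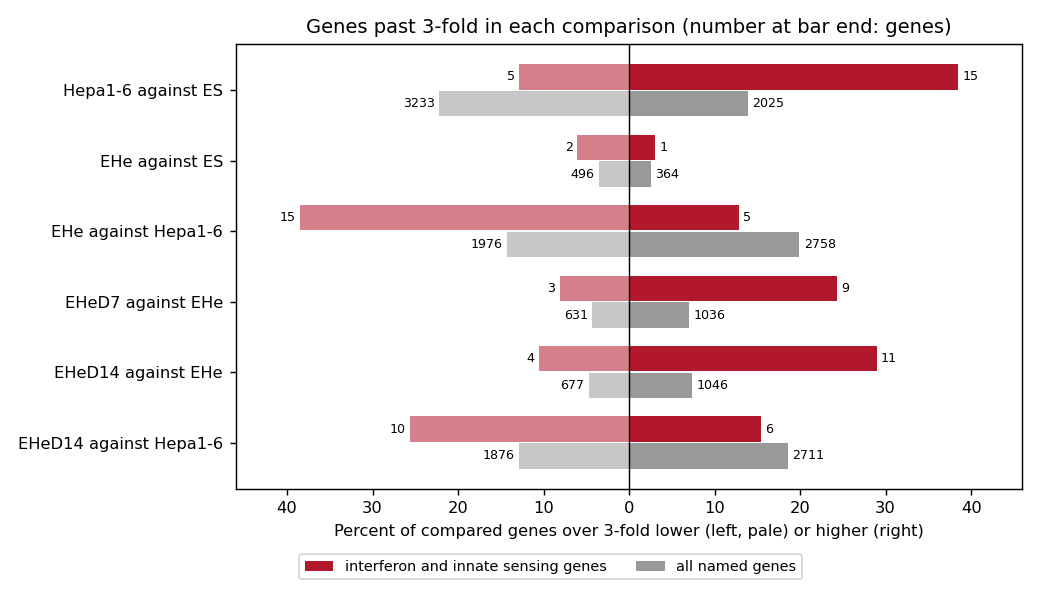
Percent of compared genes over 3-fold higher (right) or lower (left) in each of 6 comparisons, for the interferon and innate sensing genes (red) and all named genes (grey), with the number of genes at each bar end. The red bars reach past the grey on the right in Hepa1-6 against ES (15 genes) and in EHeD7 and EHeD14 against EHe (9 and 11 genes). On the left they do so in EHe and EHeD14 against Hepa1-6 (15 and 10 genes) and in EHeD7 and EHeD14 against EHe (3 and 4 genes). In EHe against ES they reach past it slightly on both sides (1 gene higher and 2 lower).

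Promoters are shown for the 6 members with an ISRE core that were furthest apart between EHeD14 and EHe in either direction. All 6 were higher in EHeD14. Each is the RefSeq sequence of mouse build GRCm38.p6 from 250 bases before to 50 bases after the gene's start, 5′ to 3′ on the strand of the gene. Capitals mark matches to the ISRE core, spelled here as GAAA, any 2 bases and GAAA (TTTC, any 2 bases and TTTC when read on the other strand), with overlapping matches merged.
Gbp2 (chr3:142620413-142620712, plus strand): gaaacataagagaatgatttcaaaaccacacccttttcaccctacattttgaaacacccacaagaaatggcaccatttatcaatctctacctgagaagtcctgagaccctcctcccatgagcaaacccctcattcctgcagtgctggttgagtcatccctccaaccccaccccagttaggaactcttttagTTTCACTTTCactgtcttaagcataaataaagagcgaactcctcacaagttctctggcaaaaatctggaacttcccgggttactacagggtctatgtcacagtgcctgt
Irgm1 (chr11:48871371-48871670, minus strand): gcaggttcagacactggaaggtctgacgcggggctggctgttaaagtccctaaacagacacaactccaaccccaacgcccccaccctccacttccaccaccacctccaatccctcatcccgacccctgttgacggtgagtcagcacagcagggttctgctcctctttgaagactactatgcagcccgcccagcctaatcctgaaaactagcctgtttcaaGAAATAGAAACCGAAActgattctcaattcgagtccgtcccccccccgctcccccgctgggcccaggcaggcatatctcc
Gbp3 (chr3:142559794-142560093, plus strand): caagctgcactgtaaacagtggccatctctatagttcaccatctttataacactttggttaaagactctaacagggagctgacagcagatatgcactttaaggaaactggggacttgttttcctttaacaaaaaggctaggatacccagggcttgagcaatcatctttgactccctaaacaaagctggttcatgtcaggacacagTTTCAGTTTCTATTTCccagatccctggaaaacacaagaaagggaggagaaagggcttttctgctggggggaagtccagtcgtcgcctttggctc
Bst2 (chr8:71537423-71537722, minus strand): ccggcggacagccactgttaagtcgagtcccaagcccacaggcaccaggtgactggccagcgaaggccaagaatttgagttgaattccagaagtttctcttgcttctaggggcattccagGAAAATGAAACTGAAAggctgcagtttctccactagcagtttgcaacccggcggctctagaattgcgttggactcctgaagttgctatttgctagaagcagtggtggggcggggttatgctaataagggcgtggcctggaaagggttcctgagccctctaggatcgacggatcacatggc
Isg15 (chr4:156200769-156201068, minus strand): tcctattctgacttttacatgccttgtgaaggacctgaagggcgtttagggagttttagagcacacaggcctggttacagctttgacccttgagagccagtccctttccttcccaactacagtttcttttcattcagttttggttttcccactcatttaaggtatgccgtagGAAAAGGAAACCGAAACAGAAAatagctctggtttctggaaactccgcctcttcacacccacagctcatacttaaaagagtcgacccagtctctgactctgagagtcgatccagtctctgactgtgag
Igtp (chr11:58199306-58199605, plus strand): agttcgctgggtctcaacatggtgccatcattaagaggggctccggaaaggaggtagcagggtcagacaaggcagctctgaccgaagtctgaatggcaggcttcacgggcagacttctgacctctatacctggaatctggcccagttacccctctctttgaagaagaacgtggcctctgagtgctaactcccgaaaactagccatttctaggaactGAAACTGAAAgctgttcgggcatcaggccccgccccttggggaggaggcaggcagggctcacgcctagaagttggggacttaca

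In 4 of these 6 promoters the matches ran into each other. Irgm1, Gbp3 and Bst2 each held 2 overlapping matches in a run of 16 bases, and Isg15 held 3 in a run of 22 bases. Gbp2 and Igtp each held 1 match of 10 bases. The match nearest to the start began 24 bases before it in Irgm1, 34 in Igtp, 39 in Gbp3, 59 in Gbp2, 66 in Isg15 and 124 in Bst2.

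Across the list, 18 of the 37 members with a promoter in the RefSeq table held an ISRE core (48.6%), beside 3.99% of 27025 genes. The GAS letters TTCNNNGAA, which read the same on both strands, were present in 13 of the 37 (35.1%), beside 9.55% of all genes. There were 6 members with both motifs, and in 3 of them (Myd88, Ifitm3 and Bst2) the letters overlapped. Dhx58, Tlr4, Oas2, Mx1, Mx2, Usp18 and Parp14 had no entry in the table.

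The presence of the core was set beside the differences on differentiation. Among members with an ISRE core, 8 of the 16 compared were over 3-fold higher in EHeD14 than in EHe and 2 were over 3-fold lower, with a median of 0.90. Among members without it, 3 of 18 were over 3-fold higher (Oasl2, Irf8 and Irf1) and 2 over 3-fold lower, with a median of 0.22. Over all named genes, 12.9% of the 387 compared genes with an ISRE core in their promoter were over 3-fold higher, beside 6.69% of the 10982 without, and 4.91% and 4.53% were over 3-fold lower. A match to these letters describes the window and is not a measured binding site.

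**Figure D3:**
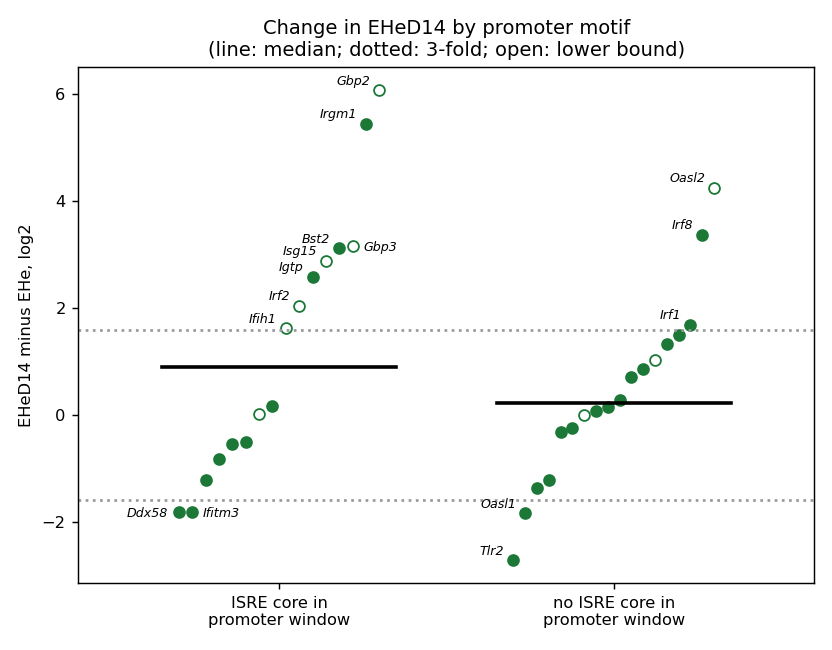
Difference between EHeD14 and EHe (log2) for each compared member, split by whether its RefSeq promoter window holds an ISRE core, with the group median as a line, 3-fold as dotted lines and lower bounds as open points. The 16 members with the core reach higher (median 0.90) than the 18 without (median 0.22), and both groups hold members on each side of 0.

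Among the interferon receptors, Hepa1-6 stood above the other arrays. Ifngr1, the ligand-binding chain of the interferon gamma receptor, had a level of -0.38 in ES, 0.36 in EHe, 0.85 in EHeD7 and 1.07 in EHeD14, and 4.35 in Hepa1-6. Hepa1-6 exceeded ES 26.5-fold, and the gene was 9.72-fold lower in EHeD14 than in Hepa1-6. Ifngr2, the signalling chain, stood at -1.05 in ES, -1.35 in EHe, 0.30 in EHeD7 and 0.15 in EHeD14, and 2.12 in Hepa1-6. Hepa1-6 thus exceeded ES by 3.17 log2 units, and differentiation brought the level part of the way, 3.14-fold above EHe at day 7 and 2.84-fold at day 14. The day 7 value passed 3-fold only narrowly and fell short of it under normexp background correction, at 1.39 log2 units, and when arrays were centred on their medians, at 1.47. The other Ifngr2 probe was not well above background in EHe, at -4.51, and stood at -2.32 in EHeD7 and -2.59 in EHeD14. By that probe both days lay over 3-fold above EHe.

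The type I receptor chains varied less. Ifnar1 ranged from 1.15 in EHe to 2.21 in Hepa1-6, and stood at 1.46 in ES, 1.57 in EHeD7 and 1.43 in EHeD14. Ifnar2 was level across ES (0.68), EHe (0.83), EHeD7 (0.73) and EHeD14 (0.91), and reached 2.28 in Hepa1-6. Its 3.03-fold difference between Hepa1-6 and ES lay just past 3-fold and was 2.38 log2 units with median centring but 1.04 with the mean of its 2 probes. Receptor transcripts for both interferon types were thus present in all 5 conditions.

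The interferon regulatory factors fell into several patterns. Irf1, an activator that is itself induced by interferon gamma, had a level of 3.35 in ES, 2.63 in EHe, 3.40 in EHeD7 and 4.32 in EHeD14, and 2.66 in Hepa1-6. It was highest in EHeD14, 3.23-fold above EHe and 3.18-fold above Hepa1-6. The difference from EHe was 1.54 with median centring and 1.41 with the mean of its probes, both short of 3-fold. By the other Irf1 probe the difference from Hepa1-6 was 1.21, also short of 3-fold. Irf2, a related factor that competes for the same sites, was not well above background in ES or EHe and had levels of -3.01 in EHeD7, -2.80 in EHeD14 and -0.23 in Hepa1-6. It was at least 4.12-fold higher in EHeD14 than in EHe, a bound of 1.48 log2 units under normexp, and still 5.93-fold lower in EHeD14 than in Hepa1-6.

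Irf8, a factor best known in myeloid cells, had levels of -3.61 in ES, -3.46 in EHe, -0.19 in EHeD7 and -0.09 in EHeD14, and 2.10 in Hepa1-6. By this probe it was 10.4-fold higher in EHeD14 than in EHe. The other Irf8 probe did not show the increase, with a difference of -0.14 at day 14 and 0.56 at day 7, and its difference between Hepa1-6 and ES was 1.93 where that of the brighter probe was 5.71. The 2 probes thus agreed on a higher level in Hepa1-6 and disagreed on differentiation. Of 8 matched markers of macrophages and other leukocytes, 2 to 3 were detected on each array, with a summed signal of 0.199 to 0.417 times the 75th percentile, and Ptprc, Adgre1, Tyrobp, Spi1 and Cx3cr1 were not well above background on any array.

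The other regulatory factors differed less. Irf3, which is activated by viral sensors without new synthesis, had levels of 3.37 in ES, 3.36 in EHe, 2.90 in EHeD7 and 3.04 in EHeD14, and 4.24 in Hepa1-6. Irf5, which acts downstream of Toll-like receptors, lay between -3.01 in EHeD7 and -2.50 in ES, with -2.75 in EHe and a level in EHeD14 within 1.01-fold of EHeD7, and was at -1.20 in Hepa1-6, where it was 3.46-fold above EHeD14. Irf7, the factor that amplifies type I interferon production, was not well above background in ES or EHe and was at -5.88 in EHeD7, -5.07 in EHeD14 and -4.07 in Hepa1-6. It was dim throughout, and its bound of 2.56-fold for Hepa1-6 over ES did not pass 3-fold.

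Stat2 and Irf9, which act together at ISRE, had lower levels in EHeD7, EHeD14 and Hepa1-6 than in ES and EHe. Stat2 had levels of 0.27 in ES, 0.21 in EHe, -0.73 in EHeD7 and -0.29 in EHeD14, and -1.55 in Hepa1-6, and was 3.54-fold lower in Hepa1-6 than in ES. With median centring the difference shrank to -1.04 log2 units. Irf9, its DNA-binding partner, had levels of 0.21 in ES, 0.31 in EHe, -0.86 in EHeD7 and -0.91 in EHeD14, and -1.12 in Hepa1-6, a 2.34-fold lower level in EHeD14 than in EHe that did not pass 3-fold. Neither gene was over 3-fold higher in EHeD7 or EHeD14 than in EHe.

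The cytosolic RNA sensors did not move together. Ifih1, which encodes the sensor MDA5 of long double-stranded RNA, was not well above background in ES or EHe and had levels of -4.08 in EHeD7, -3.22 in EHeD14 and -0.03 in Hepa1-6. Hepa1-6 exceeded ES at least 41.9-fold, and Ifih1 was at least 3.08-fold higher in EHeD14 than in EHe. The latter bound was 1.33 to 1.48 log2 units under normexp, quantile normalization and median centring, which is short of 3-fold. A second Ifih1 probe was not well above background on any array, Hepa1-6 included, and with the mean of both probes the differences were 1.71 for Hepa1-6 against ES and 0 for EHeD14 against EHe. Ddx58, which encodes the sensor RIG-I, had levels of -1.27 in ES, 0.27 in EHe, -1.27 in EHeD7 and -1.54 in EHeD14, and -0.28 in Hepa1-6. It was highest in EHe and 3.50-fold lower in EHeD14, the opposite direction to Ifih1. Its 3 probes detected in EHe and EHeD14 gave differences of -1.95 to -1.81, while the mean over its probes, 1 of them dim, gave -1.18. Dhx58, which encodes the related regulator LGP2, had levels of -2.08 in ES, -2.66 in EHe, -2.85 in EHeD7 and -2.10 in EHeD14, and -4.31 in Hepa1-6. It was the lowest in Hepa1-6, 4.68-fold below ES, or -1.38 to -1.58 log2 units under normexp, quantile normalization and median centring.

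The Toll-like receptors differed in where they were detected. Tlr2, a receptor for bacterial lipoproteins, had levels of 1.41 in ES, 1.56 in EHe, -0.27 in EHeD7 and -1.15 in EHeD14, and -0.18 in Hepa1-6, each a mean over up to 10 printed spots. It was 3.54-fold lower in EHeD7 and 6.55-fold lower in EHeD14 than in EHe, the furthest of the 4 members lower at day 14. Tlr4, the receptor for bacterial lipopolysaccharide, was well above background in Hepa1-6 alone, at -1.07, at least 20.4-fold above ES and at least 22.4-fold above EHeD14. Tlr3, an endosomal receptor for double-stranded RNA, was not well above background on any array. Myd88, the adaptor that carries the signal of Tlr2 and Tlr4, was detected on all 5 arrays, with levels of 1.20 in ES, 0.35 in EHe, 0.38 in EHeD7 and 0.52 in EHeD14, and 1.52 in Hepa1-6, and no difference between these levels passed 3-fold. With median centring it was -1.85 log2 units in EHe and -1.83 in EHeD14 against Hepa1-6, both past 3-fold.

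The interferon-inducible GTPases of the list were higher in both differentiated hybrids than in EHe. All 4 matched genes were over 3-fold higher than EHe at both days, with a median difference of 3.52 at day 7 and 4.31 at day 14. Among the GTPases of the other pathway genes, Irgm2 and Gbp7 were over 3-fold higher in EHeD14 than in EHe. In EHeD7 against EHe no GTPase among them was over 3-fold higher, and Tgtp1 was over 3-fold lower. Gbp2, a guanylate-binding protein that attacks the vacuoles of intracellular pathogens, had a level of -2.98 in ES, was not well above background in EHe, and had levels of 0.11 in EHeD7, 1.24 in EHeD14 and -2.34 in Hepa1-6. Gbp2 was at least 30.9-fold higher in EHeD7 and at least 67.7-fold higher in EHeD14 than in EHe. Its level in EHeD14 also lay 18.6-fold above ES and 12.0-fold above Hepa1-6, higher than in either parent. Gbp3, a neighbouring family member on chromosome 3, had levels of -5.32 in ES, -2.76 in EHeD7, -1.68 in EHeD14 and -3.02 in Hepa1-6 and was not well above background in EHe. It was at least 8.97-fold higher in EHeD14 than in EHe and 2.55-fold higher than in Hepa1-6.

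Both immunity-related GTPases of the list act on the membranes around intracellular pathogens and are encoded on chromosome 11. They were higher in EHeD7 and EHeD14 than in EHe. Irgm1 had levels of -1.41 in ES, -4.33 in EHe, 0.78 in EHeD7 and 1.12 in EHeD14, and 1.46 in Hepa1-6. It was 7.57-fold lower in EHe than in ES, 34.7-fold higher in EHeD7 and 43.7-fold higher in EHeD14 than in EHe, and within 1.27-fold of Hepa1-6 at day 14, a difference that was -1.17 log2 units with median centring. Its second probe gave a difference of 3.03 between Hepa1-6 and ES beside 2.87 for the first. Igtp had levels of -0.73 in ES, -1.04 in EHe, 0.68 in EHeD7 and 1.55 in EHeD14, and 0.11 in Hepa1-6, 6.03-fold higher in EHeD14 than in EHe. Its day 7 difference of 1.71 fell short of 3-fold with normexp and with median centring (1.53). Igtp, like Gbp2 and Gbp3, was higher in EHeD14 than in both parents. The probe sequences are not used here, so signal shared between close family members could not be checked.

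The 2-5A synthetase family, whose active members make the second messenger that switches on RNase L, was split. Oasl2 had levels of -3.61 in ES, -1.31 in EHeD7, -0.58 in EHeD14 and -3.96 in Hepa1-6 and was not well above background in EHe. Oasl2 was at least 11.6-fold higher in EHeD7 and at least 19.1-fold higher in EHeD14 than in EHe, and 10.4-fold higher in EHeD14 than in Hepa1-6. Oasl1, its neighbour on chromosome 5, had levels of -2.37 in ES, -2.47 in EHe, -4.02 in EHeD7 and -4.31 in EHeD14, and 0.95 in Hepa1-6. It was 3.58-fold lower in EHeD14 than in EHe, -1.05 log2 units under normexp, and 38.3-fold lower in EHeD14 than in Hepa1-6. The 2 genes thus differed in opposite directions both on differentiation and from the hepatoma parent.

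Oas2 had levels of -1.88 in ES, -1.51 in EHe, -2.50 in EHeD7 and -2.97 in EHeD14 and was not well above background in Hepa1-6. It was at least 10.8-fold lower in Hepa1-6 than in ES and at least 5.06-fold higher in EHeD14 than in Hepa1-6, a bound that was 1.24 to 1.51 log2 units under normexp, quantile normalization and median centring. A second Oas2 probe was not well above background on any array, and with the mean of both probes the differences were -0.70 for Hepa1-6 against ES and 0 for EHeD14 against Hepa1-6. Oas3 had levels of -4.92 in ES, -3.33 in EHe, -4.16 in EHeD14 and -3.60 in Hepa1-6 and was not well above background in EHeD7. EHe exceeded ES by 1.59 log2 units, just at 3-fold, and Oas3 was at least 7.08-fold lower in EHeD7 than in EHe. Its other probe gave 0.04 for EHe against ES where the brighter gave 1.59, and normexp gave 0.12 for that difference and -0.81 for EHeD7 against EHe. That other probe was well above background in EHeD7, at -5.26, within 3-fold of EHe (-4.11) and EHeD14 (-4.23), and was not in Hepa1-6. The Oas3 values, its calls in EHeD7 against EHe and EHeD14 against EHeD7 included, thus depend on the probe and on background correction.

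**Figure D4:**
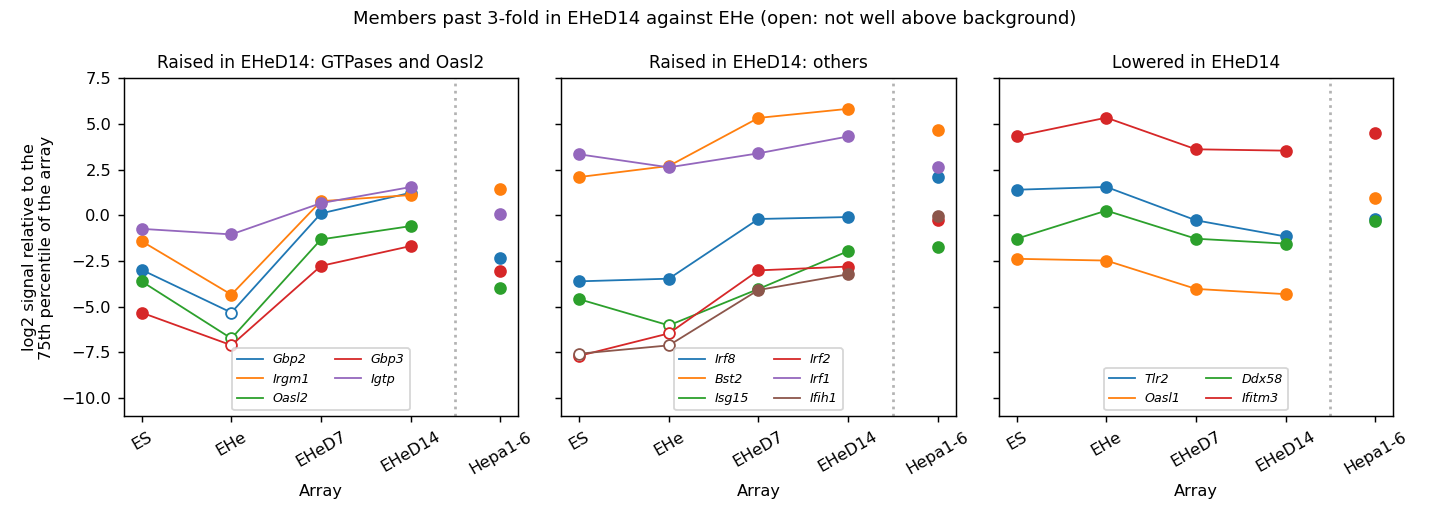
Level on each array of the members past 3-fold in EHeD14 against EHe, as log2 signal relative to the 75th percentile of the array, with open points where the gene was not well above background and Hepa1-6 set apart at the right. The GTPases and Oasl2 climb from EHe to EHeD7 and EHeD14, Bst2 and Isg15 do the same, and Tlr2, Oasl1, Ddx58 and Ifitm3 descend.

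Among the other effectors, Bst2 was higher in both differentiated hybrids than in EHe. Bst2, which encodes tetherin, a membrane protein that holds budding virus particles at the cell surface, had levels of 2.10 in ES, 2.71 in EHe, 5.34 in EHeD7 and 5.84 in EHeD14, and 4.68 in Hepa1-6. It was 6.19-fold higher in EHeD7 and 8.74-fold higher in EHeD14 than in EHe, and 2.23-fold higher in EHeD14 than in Hepa1-6. EHeD14 lay above both parents for this gene, by 0.33 log2 units over Hepa1-6 with median centring, and it was detected on all 5 arrays.

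The ubiquitin-like modifier Isg15 and its protease Usp18 differed in how near EHeD14 came to Hepa1-6. Isg15 had levels of -4.58 in ES, -4.02 in EHeD7, -1.95 in EHeD14 and -1.75 in Hepa1-6 and was not well above background in EHe. Isg15 was at least 7.40-fold higher in EHeD14 than in EHe, 4.20-fold higher in EHeD14 than in EHeD7, and within 1.15-fold of Hepa1-6 at day 14, a difference that was -1.03 log2 units with median centring. Usp18 was not well above background in ES or EHe and had levels of -4.91 in EHeD7, -3.85 in EHeD14 and 3.06 in Hepa1-6. Its level in Hepa1-6 was at least 357-fold above ES, the furthest of the members compared, and 120-fold above EHeD14.

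Isg20 was high in Hepa1-6 and low in the hybrids, and Rsad2 and Ifit2 were dim. Isg20, an exonuclease that degrades RNA, had levels of -3.82 in ES, -4.32 in EHeD7, -3.80 in EHeD14 and 0.45 in Hepa1-6 and was not well above background in EHe. Hepa1-6 exceeded ES 19.3-fold, and Isg20 was 19.1-fold lower in EHeD14 than in Hepa1-6. The other Isg20 probe was not well above background in ES or EHe. It stood at -3.63 in EHeD7, -2.85 in EHeD14 and 1.84 in Hepa1-6. Rsad2, which encodes the antiviral enzyme viperin, was detected in EHeD14 (-4.83) and Hepa1-6 (-4.82) alone, near the floor. Ifit2, which binds viral RNA, was not well above background in ES and had levels of -4.28 in EHe, -2.86 in EHeD7 and -2.95 in EHeD14, and -2.16 in Hepa1-6, and its Hepa1-6 level exceeded ES at least 9.59-fold. Under normexp this Ifit2 difference was 1.27 log2 units, and that of Isg15 was 1.35 where the main value was 2.83.

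The Ifitm genes, which encode small membrane proteins that block the entry of viruses and are used as markers of early germ cells, differed from each other. Ifitm1 had levels of 3.05 in ES, 3.01 in EHe, 1.72 in EHeD7 and 1.65 in EHeD14, and -2.62 in Hepa1-6. It was 50.9-fold lower in Hepa1-6 than in ES and 19.4-fold higher in EHeD14 than in Hepa1-6, and its difference between EHeD14 and EHe (-1.36) was within 3-fold. Ifitm3 had levels of 4.34 in ES, 5.35 in EHe, 3.62 in EHeD7 and 3.55 in EHeD14, and 4.53 in Hepa1-6, 3.32-fold lower in EHeD7 and 3.50-fold lower in EHeD14 than in EHe. Ifitm2 had levels of 4.51 in ES, 4.86 in EHe, 3.73 in EHeD7 and 3.65 in EHeD14, and 4.15 in Hepa1-6. Its difference between EHeD14 and EHe was -1.21 by both probes, short of 3-fold, so among these genes Ifitm3 alone passed 3-fold on differentiation.

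The remaining effectors varied less. Eif2ak2, which encodes the kinase PKR that halts translation, had levels of -1.48 in ES, -1.86 in EHe, -2.88 in EHeD7 and -2.41 in EHeD14, and -1.17 in Hepa1-6. It was 3.27-fold lower in EHeD7 than in Hepa1-6, and its difference of -1.23 between EHeD14 and Hepa1-6 was -2.06 with median centring. Samhd1, which depletes the nucleotides that viruses need, had levels of -0.10 in ES, -0.11 in EHe, 0.38 in EHeD7 and 0.75 in EHeD14, and 0.46 in Hepa1-6. Parp14, a mono-ADP-ribosyltransferase, lay between -0.28 in EHeD7 and 0.42 in ES, with 0.36 in EHe, 0.39 in EHeD14 and -0.24 in Hepa1-6. Trim25, the ubiquitin ligase that activates RIG-I, was detected on all 5 arrays, with levels of 4.03 in ES, 3.16 in EHe, 3.24 in EHeD7 and 3.32 in EHeD14, and 2.69 in Hepa1-6. Its 2 probes differed in sign between EHeD14 and Hepa1-6, at -1.24 and 0.63, and between EHe and ES they gave -1.77 and -0.86, of which the first is past 3-fold.

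The parental difference and the difference on differentiation were set side by side, since Hepa1-6 against ES and EHeD14 against EHe share no array. Of the 15 members in which Hepa1-6 exceeded ES over 3-fold, 14 were compared between EHeD14 and EHe (Tlr4 was not), and 7 of the 14 were also over 3-fold higher in EHeD14 than in EHe (Irf8, Ifih1, Irf2, Irgm1, Isg15, Bst2 and Gbp3). Over the 1720 named genes with that parental difference and compared in both, the share was 20.3%. The member count was 6 to 9 under the alternatives except normexp and detection on all 5 arrays, where it was 3. By its other probe, Irf8 was not higher in EHeD14 than in EHe (-0.14 log2 units). The Ifih1 bound fell short of 3-fold under normexp, quantile normalization and median centring, and was 0 with the mean of its probes. Gbp2, Oasl2, Igtp and Irf1 were over 3-fold higher in EHeD14 than in EHe with parental differences within 3-fold, although that of Igtp was 1.62 log2 units with median centring, past 3-fold. Conversely Ifngr1, Ifngr2, Ifit2 and Ifnar2 were past 3-fold between the parents and within 3-fold in EHeD14 against EHe, and Oasl1 was lower in EHeD14. By its other probe, Ifngr2 was past 3-fold in EHeD14 against EHe as well. Usp18 and Isg20 were past 3-fold between the parents and had only bounds in EHeD14 against EHe. By the probes used, these were at least 1.99-fold and 2.05-fold, which leave the side of 3-fold unknown. With dim signals as measured, these 2 differences were 3.21 and 1.57 log2 units. The other Isg20 probe, not well above background in EHe, stood at -2.85 in EHeD14, over 3-fold above the EHe floor of -4.84.

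**Figure D5:**
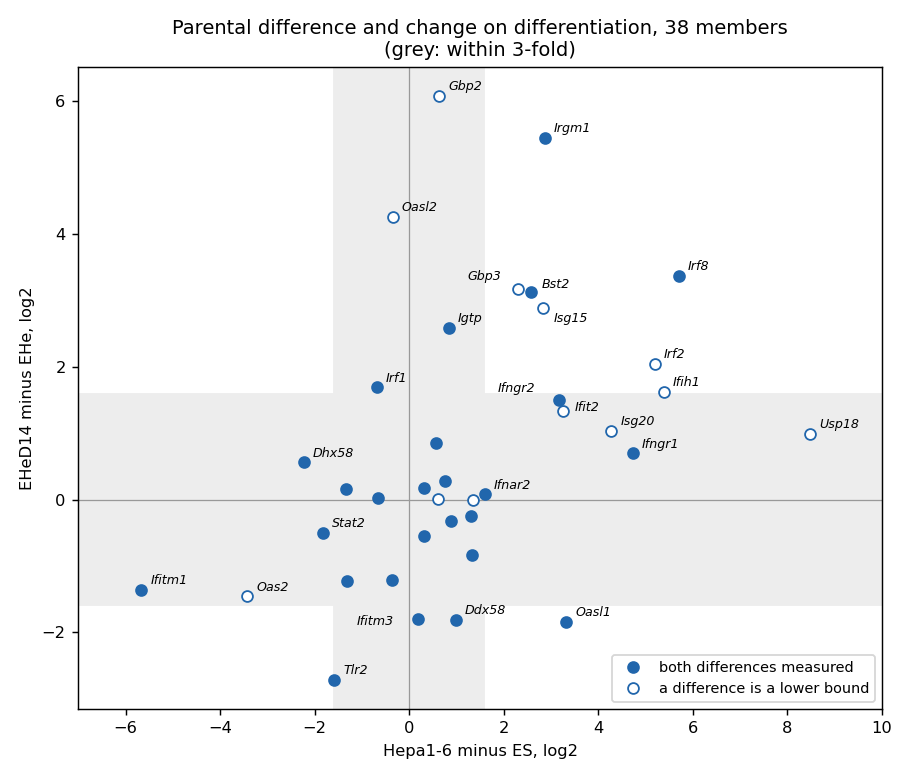
Difference between Hepa1-6 and ES (horizontal, log2) and between EHeD14 and EHe (vertical, log2) for the 38 members compared in both, with grey bands for differences within 3-fold and open points where either value is a lower bound. The 7 members at the upper right are past 3-fold in both, Gbp2 and Oasl2 lie at the top near 0 on the horizontal axis, and Usp18 lies far right.

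Markers of other cell types were read beside the differentiated hybrids. Of 7 fibroblast markers, 4 were detected in ES and in EHe and 5 in EHeD7 and in EHeD14, with a summed signal of 1.55, 0.991, 4.87 and 5.35 times the 75th percentile of the array. Dcn and Lum were not well above background on these 4 arrays. In Hepa1-6, 2 of the 7 were detected and the sum was 176, which was nearly all Dcn. The part of these cells in the levels of the GTPases, Oasl2, Bst2 and Isg15 was not tested.

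Beyond the 44 genes, 121 other genes of the pathway were listed, of which 111 were matched and 98 detected on at least 1 array. Between Hepa1-6 and ES, 43 of 96 compared were over 3-fold higher in Hepa1-6 and 9 over 3-fold lower, beside 13.9% and 22.2% of all named genes. Between EHe and Hepa1-6, 6 of 93 were over 3-fold higher in EHe and 48 over 3-fold lower, beside 19.9% and 14.3%. In EHeD14 against EHe, 11 of 90 were past 3-fold upward (12.2%) and 6 past it downward (6.67%), beside 7.33% and 4.74% of all named genes and 28.9% (upward) of the 38 members. In EHeD7 against EHe the counts were 6 (6.59%) and 8 (8.79%) of 91, beside 7.06% and 4.3%, so the share higher at day 7 was near the background. Ifnb1, which encodes interferon beta and is named after its values were seen, was not well above background on any array.

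The pathway genes furthest from EHe at day 14 included regulators. Irak3, an inhibitor of Toll-like receptor signalling, stood at 1.44 in EHe and -2.31 in EHeD14, 13.4-fold lower. Socs3, an inhibitor of cytokine signalling that is induced by leukemia inhibitory factor, had levels of 5.46 in ES, 5.14 in EHe, 2.39 in EHeD7 and 1.97 in EHeD14, and 2.97 in Hepa1-6, 8.96-fold lower in EHeD14 than in EHe. Irak2, a kinase of the same Toll-like receptor pathway, was 5.20-fold lower. These 3 genes were lower in EHeD14 than in EHe, as was Zc3hav1, an antiviral zinc finger protein, by 6.05-fold.

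Genes on either side were also found among the effectors. Rtp4 was at least 9.65-fold higher in EHeD14 than in EHe, Parp10 7.82-fold, Nod2, a sensor of bacterial peptidoglycan, at least 7.65-fold, and Tdrd7 5.20-fold. Sp110 was at least 9.19-fold lower and Lgals9 at least 7.67-fold lower. Among these other pathway genes, the largest gaps between EHe and Hepa1-6 were those of Cd274, which encodes the immune checkpoint ligand PD-L1, with a bound of -6.23 log2 units, Ifi27 (68.5-fold lower in EHe), Ifi204 (at least 62.5-fold), Lgals3bp (51.7-fold) and Ly96, the co-receptor of Tlr4 (51.2-fold). Ly96 stood at -3.69 in EHeD14 and 1.97 in Hepa1-6, the same order as Tlr4.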

How the data were processed

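RNA from ES, EHe, EHeD7, EHeD14 and Hepa1-6 was hybridised to 1 Agilent array each, read in 1 channel. By the labels the dye was Cy3 and the hybrids differentiated as a monolayer. In the study's methods the dye is Cy5, and the differentiation of ES cells and hybrids ran through embryoid bodies. The authors deposited 1 scanner table per array from Agilent Feature Extraction 10.7.3.1, with a processed signal (intensity, corrected for background in the scanner software) and spot calls. Deposited calls of other kinds (outlier, saturated, well above background, coded 0 or 1) were used as such. The series table the authors deposited held the same intensity values, with a largest relative difference of 0.

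Control and outlier spots (73 to 174 per array) were left out, and saturated spots were absent. Log2 signals minus the 75th percentile of their array were averaged over the spots of a probe. Of 41174 probes, 26888 were named through RefSeq accessions. A gene took its brightest probe among those detected on the most arrays. The number of arrays, 1 per condition, limits the precision, and no test between conditions was possible. Genes were called past 3-fold, the fold the study used together with a p-value, which 1 array per condition does not allow. A bound under 3-fold is not a call, whatever the true difference. List counts and medians were set beside those of all named genes. The members, the other pathway genes and the marker lists were chosen with earlier results of these data known. Every member was named. Of the other pathway genes, those named were the 10 furthest from EHe in EHeD14 and the 5 furthest between EHe and Hepa1-6. Promoters were shown for the 6 members with an ISRE core furthest from EHe in EHeD14. The counting was tested on simulated data. Alternatives were normexp (offset 50) on the median signal, quantile normalization, median centring, the series table, dim signals as measured, no filter, detection on all 5 arrays, and the mean of a gene's probes. Those for EHeD14 against EHeD7, and for the members past 3-fold in both the parental and the day 14 comparison, were chosen after seeing the data. The tools were R 4.3.3 with limma 3.58.1 and Python 3.11.15 with pandas 2.3.3, numpy 2.4.6 and matplotlib 3.10.9.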

Additional observations from a re-analysis of the deposited data

How the results depend on the processing

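No paired analysis was possible because there was 1 array for each condition, with no replicate to leave out. Of 176 values under an alternative, 121 stayed near the main value (counts within 1.5 times, medians within 0.083 log2 units) and 55 moved. The 121 include all values from the series table, which could not move because that table held the same intensities. Of 86 calls of members past 3-fold, 56 kept their direction and stayed past 3-fold in every setting that gave a value, and 0 turned sign. The cause of these shifts was not tested, except that requiring detection on all 5 arrays leaves 25 members.

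With normexp, EHe against ES gave 0 members higher and 1 lower (median -0.14), EHeD14 against EHeD7 gave 0 higher, and the medians were 0.58 for Hepa1-6 against ES, -0.97 for EHe against Hepa1-6, 0.20 for EHeD7 against EHe and -0.49 for EHeD14 against Hepa1-6. The members past 3-fold in both the parental and the day 14 comparison numbered 3. Of all named genes under normexp, 1.01% were higher and 1.77% lower in EHe than in ES, and 0.0954% were higher in EHeD14 than in EHeD7. With quantile normalization, 3 members were lower in Hepa1-6 than in ES and 5 in EHeD7 than in EHe, beside 16.6% and 4.87% of all named genes. The member medians were 1.01 for Hepa1-6 against ES, -1.14 for EHe against Hepa1-6 and -0.96 for EHeD14 against Hepa1-6.

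Median centring moved the median of all named genes for Hepa1-6 against ES from -0.42 to 0.30 and their shares higher and lower from 13.9% and 22.2% to 22.9% and 12.8%. For EHe against Hepa1-6 these shares went from 19.9% and 14.3% to 12.8% and 22.5%, and for EHeD14 against Hepa1-6 from 18.6% and 12.9% to 11.7% and 24.3%. Among members it gave 2 lower for Hepa1-6 against ES (median 1.66), 2 higher for EHe against ES (0.047), 2 higher for EHe against Hepa1-6 (-1.73), 5 lower for EHeD7 against EHe, and 3 higher and 20 lower for EHeD14 against Hepa1-6 (-1.61). The member median for EHeD14 against EHe was 0.068. Of all named genes, 3.21% were higher in EHe than in ES and 5.14% lower in EHeD7 than in EHe.

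With dim signals as measured, and with no filter, EHe against ES gave 2 members higher and 4 lower. Beside these stood 2.96% and 6.16% of all named genes with dim signals as measured, and 2.61% and 5.18% with no filter. The member medians were 0.99 and 1.14 for Hepa1-6 against ES, -1.45 and -1.43 for EHe against Hepa1-6, 0.23 and 0.33 for EHeD7 against EHe, and 0.63 in both settings for EHeD14 against EHe, and no filter gave -0.67 for EHeD14 against Hepa1-6. With detection on all 5 arrays, the counts higher among 25 members were 7 for Hepa1-6 against ES, 0 for EHe against ES, 5 for EHeD7 against EHe, 5 for EHeD14 against EHe, 3 for EHeD14 against Hepa1-6 and 0 for EHeD14 against EHeD7. The shares of all named genes higher were 12.9%, 1.66%, 4.53%, 4.68%, 11.4% and 0.0916%, in the same order. The counts of members lower were 1 for EHe against ES, 6 for EHe against Hepa1-6 and 5 for EHeD14 against Hepa1-6, beside 2.03%, 12.7% and 11.6% of all named genes. The member medians were 0.56 for Hepa1-6 against ES, -0.69 for EHe against Hepa1-6, -0.19 for EHeD7 against EHe, 0.079 for EHeD14 against EHe and 0.13 for EHeD14 against EHeD7. With the mean of a gene's probes, EHe against ES gave 0 members higher, beside 2.28% of all named genes, and the member median for EHeD14 against EHe was 0.14.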
